A study of Mus musculus with 6 samples.

Results

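The genes followed here across 6 arrays are 6 genes of the promyelocyte, Mpo, Elane, Prtn3, Ctsg, Ms4a3 and Fcnb. They were taken by name, as all probes whose RefSeq accession belongs to one of these genes, and each was read by 1 probe with 1 spot per array (A_55_P1995537, A_66_P137219, A_51_P209818, A_51_P416546, A_51_P364210 and A_52_P676359, in that order). The genes were chosen with earlier results of these data known, which limits any comparison of their calls with those of all genes. All 6 were among the 13247 genes that could be tested, because each probe was well above background on all 6 arrays. The RNA came from Tot2, a single line of myeloid progenitors made from an Irf8 knockout mouse, so the controls also lack the endogenous Irf8 function. The groups were cells given the empty retroviral vector MSCV-puro (control), MSCV-IRF8FLAG or MSCV-KLF4FLAG, each with 2 arrays from 2 experiments. All cells grew with granulocyte-macrophage colony stimulating factor (5 ng/ml), met 2 µg/ml puromycin 48 hr after infection and were harvested on day 4. The design text calls the experiments independent, and the spread given is that between them. The Klf4 probe gave no higher signal on the arrays labelled KLF4 than on control arrays (log2 difference 0.01 ± 0.16 (SE), n = 2 per group, limma adjusted p = 0.984) but was 63.0-fold higher on those labelled IRF8. The Irf8 probe read 0.50 and 0.65 in control, 2.94 and 3.05 in IRF8-labelled and 2.19 and 2.16 in KLF4-labelled cells, on the log2 scale used below. It was thus 5.37-fold above control on the former arrays (limma adjusted p = 5.37e-05) and 3.04-fold on the latter (adjusted p = 6.15e-04), and the transduced groups differed by 1.77-fold (adjusted p = 0.00229). The sources used here do not say whether either probe reads the transduced sequence, and the transduced groups are therefore named by their labels, as IRF8-labelled and KLF4-labelled cells.

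Primary, or azurophil, granules are the first granules that a neutrophil precursor makes, and their proteins are transcribed at the promyelocyte stage and then packed for later use. Mpo encodes myeloperoxidase, which makes hypochlorous acid from hydrogen peroxide. Elane (neutrophil elastase), Prtn3 (proteinase 3) and Ctsg (cathepsin G) encode serine proteases that are stored active after the dipeptidyl peptidase Ctsc has cut their propeptides. Ms4a3 encodes a membrane protein of granulocyte-monocyte progenitors, and Fcnb encodes ficolin B, a lectin that can start the complement cascade. In these progenitors the factors C/EBP, PU.1, RUNX1 and MYB are known activators of such genes, while Irf8 is known to favour the monocyte over the granulocyte fate.

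The 250 bases before the start that the RefSeq promoter table uses, for 4 of the genes, are printed because they include the adjacent genes Prtn3 and Elane, whose signals moved most alike, and the genes with the largest (Fcnb) and the smallest (Mpo) difference in IRF8-labelled cells. Sequences are those of RefSeq on GRCm38.p6, read 5′ to 3′ on the strand of the gene, and all 6 genes had an entry. Capitals mark matches on either strand to 4 motifs: TTGCNNAA for C/EBP, GAGGAA for PU.1, TGTGGT for RUNX and AACNG for MYB. The windows are chr10:79886062-79886311 (+) for Elane, chr10:79879417-79879666 (+) for Prtn3, chr2:28084879-28085128 (-) for Fcnb and chr11:87793534-87793783 (+) for Mpo. For Fcnb that start lies inside the annotated span of the gene, which holds the last 32 bases of its window; the other windows lie outside their genes.
Elane: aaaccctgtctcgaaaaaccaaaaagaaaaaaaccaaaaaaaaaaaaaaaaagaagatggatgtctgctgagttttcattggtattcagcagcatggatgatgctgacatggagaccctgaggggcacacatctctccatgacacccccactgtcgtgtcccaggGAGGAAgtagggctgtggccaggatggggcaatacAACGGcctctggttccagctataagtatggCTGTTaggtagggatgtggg
Prtn3: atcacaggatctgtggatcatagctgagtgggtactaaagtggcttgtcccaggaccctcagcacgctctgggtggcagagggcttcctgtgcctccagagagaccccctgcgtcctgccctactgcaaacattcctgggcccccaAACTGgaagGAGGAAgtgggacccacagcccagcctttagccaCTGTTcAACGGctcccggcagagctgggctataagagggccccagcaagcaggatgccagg
Fcnb: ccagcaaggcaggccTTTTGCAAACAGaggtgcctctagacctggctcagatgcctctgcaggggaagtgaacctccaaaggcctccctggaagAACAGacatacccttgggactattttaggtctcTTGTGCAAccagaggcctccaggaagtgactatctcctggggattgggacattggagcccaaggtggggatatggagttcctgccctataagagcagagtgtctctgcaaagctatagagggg
Mpo: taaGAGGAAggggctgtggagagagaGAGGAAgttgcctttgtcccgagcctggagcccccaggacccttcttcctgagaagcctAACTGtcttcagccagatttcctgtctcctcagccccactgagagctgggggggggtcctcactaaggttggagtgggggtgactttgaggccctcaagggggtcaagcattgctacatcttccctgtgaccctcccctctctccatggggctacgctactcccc

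Elane and Prtn3 both carried GAGGAA followed by AACGG. The first began 85 bases before the start of Elane and 95 before that of Prtn3, and the second began 50 and 55 bases before it. In Mpo and Ctsg GAGGAA was followed by AACTG, another match to the MYB motif. The share of all windows with GAGGAA followed by such a match was not counted. The motif GAGGAA was present in 4 of the 6 windows (Mpo, Elane, Prtn3 and Ctsg) and in 23.3% of the 32851 promoter windows of the same length. Fcnb alone of the 6 matched TTGCNNAA, found in 9.56% of all windows: its matches began 235 and 123 bases before the start used in that table, and the first overlaps a match to AACNG. The MYB motif was present in 5 of the 6 and in 74.2% of all windows, and TGTGGT in Ctsg and in 14.0% of all. The Ms4a3 window matched none of these 4 motifs. Neither the ETS-IRF composite element (in 2.30% of all windows) nor the IRF response element (in 2.98%) had a match in the 6 windows. CACCC, a KLF motif not marked here, was present in 5 of the 6 and in 52.0% of all. The PU.1 motif and the composite element can overlap, since both hold GGAA. A match describes these letters and is not a measured site.

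Signals are given as log2 of the processed intensity relative to the 75th percentile of the same array, an intensity that ran from 435 to 972. No non-control spot was saturated, and the brightest reading of any of the 6 genes, Ctsg in control replicate 2, stood at 65.0% of the saturation value. Ctsg was the brightest non-control probe of the array on 3 of the 6 arrays. The number of arrays, 2 per group, limits the precision of every value.

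In IRF8-labelled cells 5 of the 6 genes fell against control, in a graded series from Fcnb (34.1-fold) through Elane (7.19-fold), Prtn3 (6.10-fold) and Ms4a3 (4.60-fold) to Ctsg (2.59-fold). Mpo was 1.83-fold lower but did not pass the test. The order ran partly with brightness, since by mean signal Ctsg and Mpo ranked 12th and 37th and Fcnb 10050th. Elane and Ctsg went against it, each falling more than dimmer members (Prtn3 and Ms4a3, and Mpo). Among the 100 brightest genes the median absolute log2 difference was 0.18. It was 0.46 over the brightest 500 without the first 100, and 0.67 in the dimmest range, which holds Fcnb. The part of brightness in this order was not tested. The median difference of the 6 was -2.41 on the log2 scale, and that of all genes tested was -0.14. For comparison, 35.8% of all genes tested were called lower and 61.5% were called in either direction. In bulk RNA, fewer cells that carry a transcript and less of it per cell cannot be told apart.

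Mpo signal, on the log2 scale, was 9.39 and 8.80 in control replicates 1 and 2 and 8.45 and 7.996 in IRF8-labelled replicates 1 and 2. Both IRF8-labelled arrays lay below both control arrays, although the arrays of each group stood well apart. The difference was -0.87 ± 0.36 (SE; 95% interval -1.79 to 0.05; limma adjusted p = 0.0872), and with the replicate number as a block its SE was 0.11 and the adjusted p 0.00370, in a fit that called 43.6% of all genes tested lower. Without a block it also passed with quantile normalization (adjusted p = 0.00200), median scaling (0.0369), spike-in scaling (0.0297) and normexp background correction (0.0475).

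The serine proteases fell further than their replicate spread. Elane signal was 8.91 and 8.54 in control and 5.87 and 5.88 in IRF8-labelled cells. The elastase transcript thus read nearly the same on both IRF8-labelled arrays, far below control (log2 difference -2.85 ± 0.19 (SE), limma adjusted p = 2.13e-04). Prtn3 signal was 7.46 and 7.30 in control and 4.78 and 4.76 in IRF8-labelled cells. Its SE was the smallest of the 3 proteases, with a difference of -2.61 ± 0.10 (SE; limma adjusted p = 4.91e-05). Ctsg signal was 9.71 and 9.23 in control and 8.24 and 7.95 in IRF8-labelled cells. The groups did not overlap, but cathepsin G had the smallest fall of the proteases and the least certain one (log2 difference -1.37 ± 0.30 (SE), limma adjusted p = 0.0119). Its call was lost without control replicate 1 (adjusted p = 0.0508) and without IRF8-labelled replicate 2 (adjusted p = 0.0503).

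Ms4a3 signal was 8.17 and 7.95 in control and 5.90 and 5.82 in IRF8-labelled cells, a difference of -2.20 ± 0.15 (SE; limma adjusted p = 2.08e-04). The drop of this progenitor membrane gene lay between those of the proteases. Fcnb signal was 0.94 and 1.08 in control and -4.13 and -4.02 in IRF8-labelled cells. Ficolin B thus went from mid-range to near the lowest signal well above background, which was -4.88 and -5.39 on those arrays. Its difference of -5.09 ± 0.12 (SE; limma adjusted p = 1.38e-05) was the 10th lowest of the 13247 genes. With normexp background correction, which pulls dim signals up, it was -3.51 (adjusted p = 5.84e-05).

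**Figure D1:**
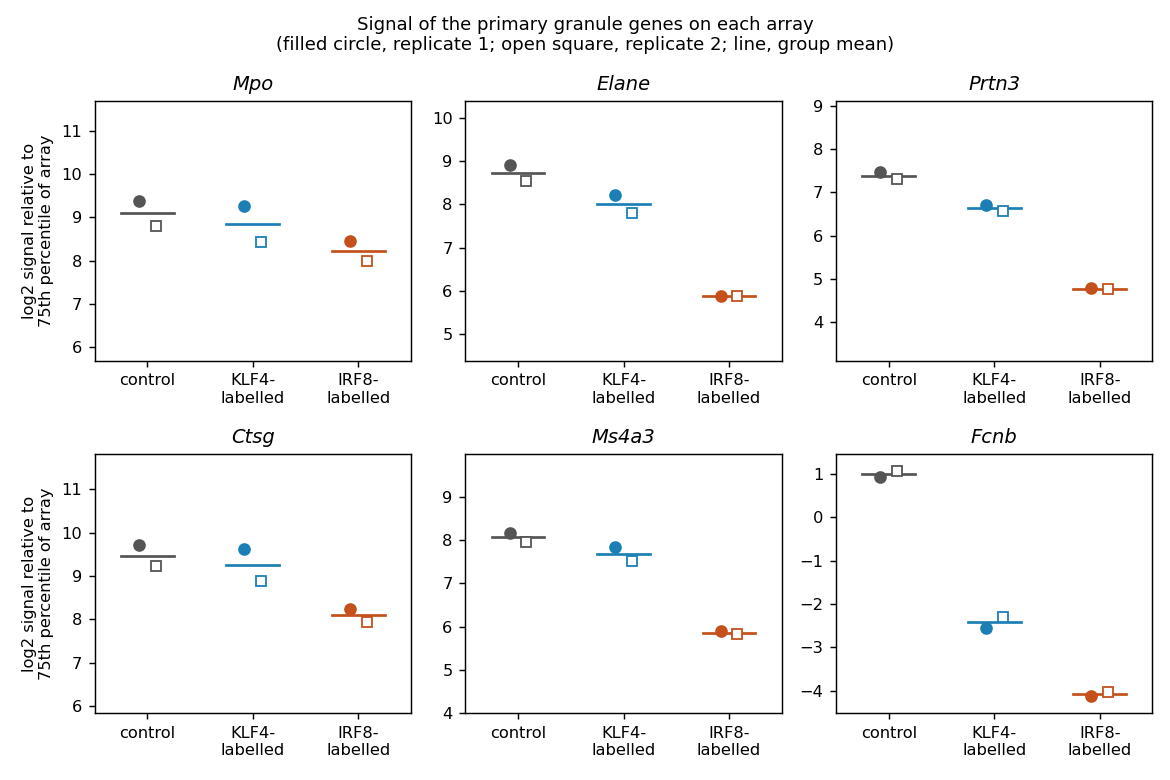
Log2 signal relative to the 75th percentile of the array (vertical axis, each panel spanning the same log2 range) for the 6 genes in control, KLF4-labelled and IRF8-labelled cells, with 1 point per array and a line at the group mean. All 6 genes are lowest in IRF8-labelled cells by group mean; in KLF4-labelled cells Mpo and Ctsg overlap with control, and Fcnb lies between the other groups.

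In KLF4-labelled cells Fcnb (10.8-fold) and Prtn3 (1.68-fold) fell against control, and the other 4 did not pass the test. These 2 of 6 compare with 7.93% of all genes tested called lower and 18.2% called in either direction. The replicate block added Elane and Ms4a3 for 4 of 6 lower, while it also raised the share of all genes called lower to 32.1%. The median difference of the 6 was -0.54 on the log2 scale, against -0.16 for all genes tested. The comparison shares its control arrays with that of IRF8-labelled cells, so their values are set side by side only.

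Fcnb signal was -2.54 and -2.29 in KLF4-labelled replicates 1 and 2, below both control arrays and above both IRF8-labelled arrays. The difference from control was -3.43 ± 0.12 (SE; limma adjusted p = 1.13e-04), the 12th lowest of all genes tested, and -2.76 with normexp background correction (adjusted p = 4.76e-04). Prtn3 signal was 6.70 and 6.57, clear of control at -0.75 ± 0.10 (SE; limma adjusted p = 0.0104). This call was lost without control replicate 1 (adjusted p = 0.0512), KLF4-labelled replicate 1 (0.0503) or KLF4-labelled replicate 2 (0.0774), with no filter on dim probes (0.0532) and with spike-in scaling (0.429).

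Elane signal was 8.22 and 7.80 in KLF4-labelled cells, below both control arrays. Its difference of -0.71 ± 0.19 (SE) was close to that of Prtn3, with a wider error (limma adjusted p = 0.0618; 0.0221 with the replicate block). Without a block it passed with quantile normalization (adjusted p = 0.0119), with just the genes above background on all 6 arrays (0.0481) and with limma's trend and robust settings (0.0433). Ms4a3 signal was 7.84 and 7.53, also below both control arrays, with a difference of -0.38 ± 0.15 (SE; limma adjusted p = 0.132; 0.0272 with the replicate block). The block call of Ms4a3 was lost when quantile normalization (adjusted p = 0.0518) or spike-in scaling (0.0559) was added. Mpo signal was 9.27 and 8.43 and Ctsg signal 9.62 and 8.88. For both, replicate 1 of the KLF4-labelled cells lay above replicate 2 of the controls, so the groups overlapped. The 95% intervals of their differences from control ran from -1.17 to 0.67 for Mpo and from -0.99 to 0.55 for Ctsg (limma adjusted p = 0.638 and 0.619), and these intervals do not show that the transcripts were unchanged.

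Set directly against KLF4-labelled cells, IRF8-labelled cells had lower signal of 5 of the 6 genes, where 26.9% of all genes tested were called lower. Elane was 4.40-fold lower (log2 difference -2.14 ± 0.19 (SE), limma adjusted p = 9.34e-04), Prtn3 3.63-fold and Ms4a3 3.54-fold. Fcnb was 3.16-fold lower (-1.66 ± 0.12 (SE), limma adjusted p = 5.84e-04), a difference that shrank to -0.75 with normexp background correction (adjusted p = 0.0162). Ctsg was 2.22-fold lower (limma adjusted p = 0.0271), a call lost without IRF8-labelled replicate 1 (adjusted p = 0.0582), IRF8-labelled replicate 2 (0.1009) or KLF4-labelled replicate 1 (0.0871), and with no filter on dim probes (0.0747). Mpo differed by -0.63 ± 0.36 (SE; limma adjusted p = 0.209), and with the replicate block the adjusted p was 0.0119, where 35.2% of all genes tested were called lower.

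For Mpo and Ctsg, differences from control taken within an experiment were steadier than the signals. For IRF8-labelled minus control, replicate 1 gave -0.94 and replicate 2 -0.80 for Mpo, so the paired differences of this gene lay 0.14 apart although its control arrays lay 0.59 apart. Ctsg gave -1.46 and -1.28, with its control arrays 0.48 apart. Prtn3 gave -2.68 and -2.54, and Ms4a3 -2.28 and -2.13. Fcnb gave -5.08 and -5.10, the closest agreement of the 6, while Elane gave -3.03 and -2.66, the widest. Over all genes tested, the median distance between paired differences was 0.10. The distance for Elane (0.37) exceeded that of 85.9% of genes, and that for Fcnb (0.03) exceeded 16.0%. Those for Mpo (0.14) and Ctsg (0.18) exceeded 61.7% and 71.5%, so both lay above the median distance.

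For KLF4-labelled minus control, the paired differences were -0.12 and -0.37 for Mpo and -0.09 and -0.35 for Ctsg, all below 0. Elane gave -0.68 and -0.74, Prtn3 -0.76 and -0.73, Ms4a3 -0.34 and -0.42 and Fcnb -3.49 and -3.38. With the scaling of the main fit, every one of the 6 genes was therefore lower in both experiments, in both comparisons with control. With quantile normalization the group difference of Ctsg between KLF4-labelled and control cells was 0.031. The share of all genes lower in both experiments was not counted. By group difference, 69 of the 100 brightest genes lay below 0 in IRF8-labelled and 93 in KLF4-labelled cells. With quantile normalization these were 53 and 47. The median of the 100 brightest in KLF4-labelled cells was -0.18, beside -0.25 for Mpo and -0.22 for Ctsg. For Prtn3 and Elane the experiments differed by 0.03 and 0.06, below the median distance of 0.14 over all genes in that comparison.

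**Figure D2:**
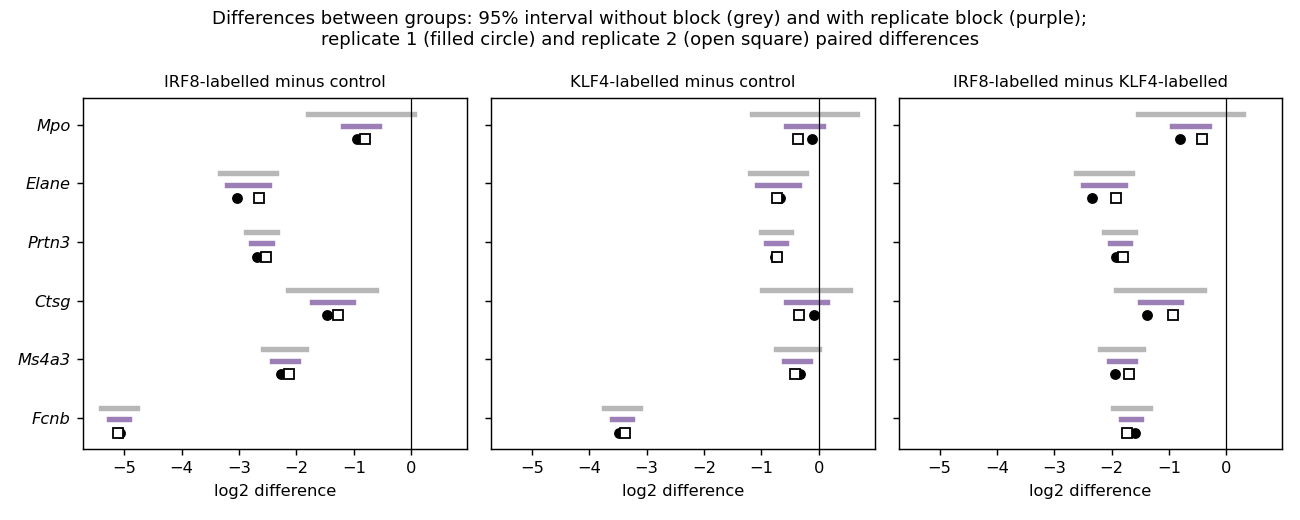
Log2 differences between groups for the 6 genes, with the 95% interval of the fit without a block (grey), the interval with the replicate block (purple) and the difference within replicate 1 (filled circle) and replicate 2 (open square). The block narrows the intervals of Mpo and Ctsg most; for Mpo in IRF8-labelled cells the SE went from 0.36 to 0.11, and all paired points against control lie below 0.

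The spread between arrays of a group followed the gene and ran the same way in every group for Mpo and Ctsg. Mpo in replicate 2 lay below replicate 1 by 0.59 in control, 0.45 in IRF8-labelled and 0.84 in KLF4-labelled cells, and the last of these gaps exceeded that of 98.1% of genes tested. Ctsg lay below by 0.48, 0.29 and 0.74. In one fit with the group as a term, the difference between replicates 2 and 1 was -0.63 for Mpo (limma adjusted p = 0.0444) and -0.50 for Ctsg (adjusted p = 0.0580). It was -0.26 for Elane, -0.21 for Ms4a3, -0.11 for Prtn3 and 0.17 for Fcnb, none of which passed. Mpo was thus 1 of 6 called, against 12% of all genes tested.

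These gaps moved with brightness. Mpo and Ctsg ranked 37th and 12th of the genes tested by mean signal, and among the 100 brightest the median difference between replicates was -0.52, with 100 of 100 below 0 and 74% called. Over all genes that median was 0.05. Elane, Ms4a3 and Prtn3 ranked 158th, 212th and 481st, and over the brightest 500 with the first 100 left out the median was -0.11, and Fcnb ranked 10050th. In unscaled intensity Mpo read 369570 and 376753 on control replicates 1 and 2, a ratio of 1.02, while the 75th percentile of those arrays rose 1.53-fold. On the KLF4-labelled arrays the ratio was again 1.02 for Mpo, against 1.83 for the percentile, while on the IRF8-labelled arrays it was 1.48 against 2.02. With quantile normalization the difference between replicates shrank to -0.12 for Mpo and 0.06 for Ctsg. Under that scaling the difference of Mpo between IRF8-labelled and control cells was -0.78 (limma adjusted p = 0.00200). What produced the gap was not tested, and the replicate number, the experiment and the slide cannot be told apart.

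Among the 100 brightest genes, 6% were called for IRF8-labelled minus control without the block and 37% with it. Mpo and Ctsg were read in that range, where few genes passed, and Ctsg was 1 of the 3 bright genes called lower.

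**Figure D3:**
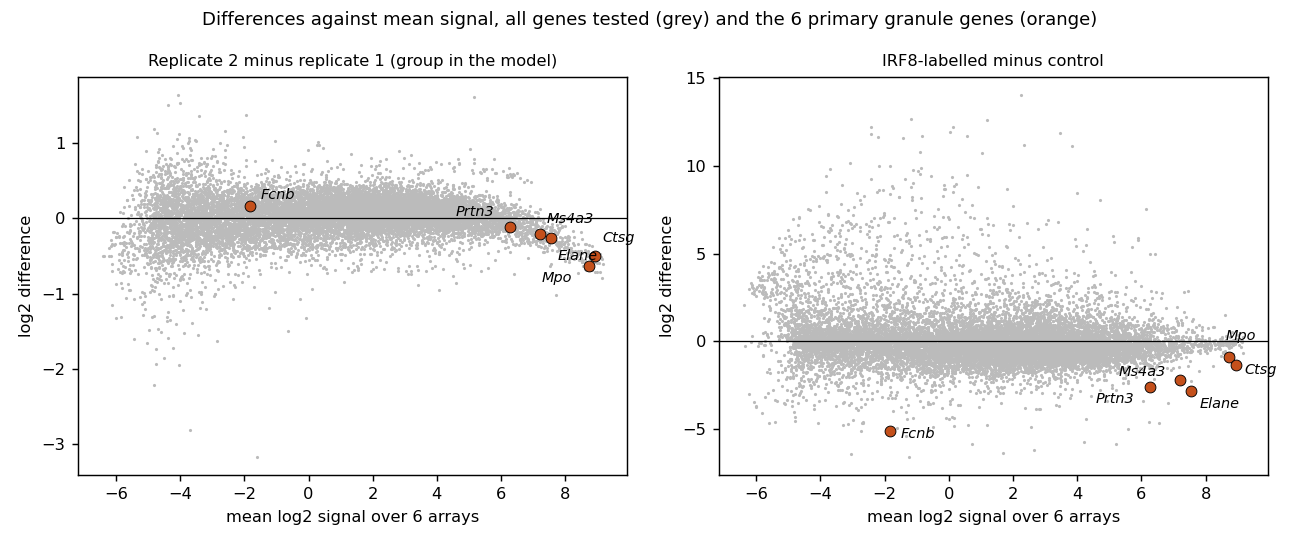
Log2 difference between replicates 2 and 1 with the group in the model (left) and between IRF8-labelled and control cells (right) against mean log2 signal over 6 arrays, for 13247 genes (grey) and the 6 granule genes (orange). On the left the cloud bends below 0 at the bright end, where Mpo (-0.63) and Ctsg (-0.50) lie; on the right all 6 genes lie below 0, with Fcnb at -5.09.

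By the size of the fall in IRF8-labelled cells, neighbours in the order could not all be separated. The unadjusted 95% intervals ran from -5.41 to -4.77 for Fcnb, -3.33 to -2.36 for Elane, -2.87 to -2.34 for Prtn3, -2.58 to -1.83 for Ms4a3, -2.14 to -0.60 for Ctsg and -1.79 to 0.05 for Mpo. Fcnb stood clear of the other 5, and each of the others overlapped with the next in the order. In KLF4-labelled cells Fcnb was again apart (-3.75 to -3.11), and the intervals of the other 5 overlapped with one another.

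Likeness was measured as the root mean square difference between profiles over the 6 arrays, each centred on its own mean, and is a description over arrays that share their scaling. Within the 6 genes Elane and Prtn3 were closest (0.16), followed by Prtn3 and Ms4a3 (0.19) and by Mpo and Ctsg (0.25). Fcnb was far from all (1.21 or more). Outside the 6, the closest profiles to Prtn3 were Tmx4 (0.05), Igfbp4 and Spns3, and those closest to Elane were Stk26 (0.11), Frat2 and Dio2. Ms4a3 was closest to Rgcc (0.08), Plac8 and Lbr. Ctsg was closest to Bmyc (0.06), Ly6c1 and the histone gene H4c14, and Mpo to the histone genes H2ac22 (0.09) and H2ac12 and to Alyref2. The nearest profiles to Fcnb were the receptor genes Mrgpra2a (0.26) and Mrgpra2b (0.33), near-identical copies that their probes may not separate, and then Gtsf1l (0.58).

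Genes that process and store granule proteins moved in both directions in IRF8-labelled cells, 2 higher and 6 lower of 8. All genes tested did so too, with 25.6% called higher and 35.8% lower. Ctsc, the peptidase that activates the granule serine proteases, read 2.82 and 2.91 in control, 6.60 and 6.56 in IRF8-labelled and 3.95 and 4.01 in KLF4-labelled cells. It was thus highest where Elane, Prtn3 and Ctsg were lowest, with a rise of 13.2-fold in IRF8-labelled cells (log2 3.72 ± 0.09 (SE), limma adjusted p = 1.24e-05) and 2.17-fold in KLF4-labelled cells. Serpinb1a, an inhibitor of neutrophil serine proteases, went the other way, at 7.52 and 7.41 in control and 4.05 and 4.08 in IRF8-labelled cells. It fell 10.5-fold there and 1.75-fold in KLF4-labelled cells. Cst7, an inhibitor of cysteine proteases, fell 4.21-fold and 1.64-fold. Vps33b, a vesicle-sorting gene, fell 1.86-fold and Ap3b1, an adaptor subunit used in granule sorting, rose 1.71-fold in IRF8-labelled cells. The other genes that fell there were Srgn, the core of the granule proteoglycan, and the chaperones Calr and Canx, by 1.36-fold to 1.78-fold. In KLF4-labelled cells 1 was higher and 2 were lower, beside 10.2% and 7.93% of all genes tested. With the block 1 was higher and 6 were lower, where 32.1% of all genes tested were called lower. The list medians were -0.70 and -0.38 on the log2 scale.

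Of 9 other azurophil contents tested, 6 rose and 1 fell in IRF8-labelled cells, and 5 rose and 1 fell in KLF4-labelled cells (list medians 0.83 and 0.40). Of all genes tested, 25.6% and 10.2% were called higher. Bpi was not tested, since only 1 array read it above background. The gene that fell was Prss57, a serine protease of azurophil granules, with 3.102 and 3.308 in control, -1.54 and -1.62 in IRF8-labelled and 1.89 and 1.91 in KLF4-labelled cells. Its falls of 27.6-fold (log2 -4.78 ± 0.11 (SE), limma adjusted p = 1.11e-05) and 2.47-fold kept the order of control over KLF4-labelled over IRF8-labelled seen for the means of the 6 genes. Lyz2, lysozyme, which macrophages also make, rose 58.9-fold and 14.2-fold. Ctsd, the cathepsin D gene, whose protease the lysosomes of most cells hold, rose 7.39-fold and 4.75-fold.

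Among 10 regulators of promyelocyte genes, 4 rose and 5 fell in IRF8-labelled cells, beside 25.6% and 35.8% of all genes tested. Myb, a factor of early progenitors, read 6.11 and 6.16 in control, 3.47 and 3.47 in IRF8-labelled and 5.69 and 5.63 in KLF4-labelled cells, so its arrays of each group were close and the groups far apart. It fell 6.35-fold and 1.40-fold (limma adjusted p = 2.56e-05 and 0.0206). Gfi1, a repressor needed for granulocytes, fell 6.88-fold in IRF8-labelled cells, and in KLF4-labelled cells its log2 difference was -0.16 ± 0.14 (SE; limma adjusted p = 0.414). Cebpe, needed for the later granules, fell 5.60-fold and 1.58-fold. Cebpa fell 2.31-fold and Etv6 1.55-fold in IRF8-labelled cells. Rara, the retinoic acid receptor alpha gene, rose 8.56-fold and 2.32-fold, while Runx1 rose 1.89-fold in IRF8-labelled and fell 1.51-fold in KLF4-labelled cells. Spi1, which encodes PU.1, and Cux1 rose 1.61-fold and 1.71-fold in IRF8-labelled cells. In KLF4-labelled cells 1 regulator rose and 3 fell, beside 10.2% and 7.93% of all genes tested. With the block 3 rose and 5 fell, where 32.1% of all genes tested were called lower. The list medians were -0.30 in IRF8-labelled and -0.20 in KLF4-labelled cells.

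Other early granulocyte genes gave 3 higher and 6 lower of 10 in IRF8-labelled cells (median -0.64), and 1 and 1 in KLF4-labelled cells (median -0.05; 2 and 3 with the block). Without the block, the shares of all genes tested called higher and lower were 25.6% and 35.8% in the former and 10.2% and 7.93% in the latter. Hdc, which makes histamine, fell 9.75-fold and was above background on 1 of the 2 IRF8-labelled arrays. Gstm1, a glutathione transferase, fell 5.13-fold, Plac8 4.84-fold and Hk3, a hexokinase, 4.33-fold. In KLF4-labelled cells Slpi, an inhibitor of elastase, rose 2.01-fold (log2 1.01 ± 0.16 (SE), limma adjusted p = 0.0168) and Hk3 fell 1.32-fold.

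The genes of secondary and tertiary granules, which a neutrophil precursor makes after the primary ones, all fell in IRF8-labelled cells, 13 of 13 tested, with a median of -4.68. The share of all genes tested called lower there was 35.8%. Mmp8 and Olfm4 were not tested. Itgb2l fell 95.5-fold and was read above background on just 1 IRF8-labelled array. Ltf (lactoferrin) fell 82.8-fold, Ngp 74.2-fold and Camp 58.8-fold. In KLF4-labelled cells 4 fell and 1 rose (7 and 1 with the block), with a median of -0.62. Without the block, 7.93% of all genes tested were called lower and 10.2% higher. Ltf fell 6.36-fold there, Cd177 2.16-fold and Camp 1.80-fold, and Mmp9 rose 3.87-fold from a control signal that 1 of 2 arrays read above background. Whether the primary and the later granule genes differ in their falls was not tested.

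**Figure D4:**
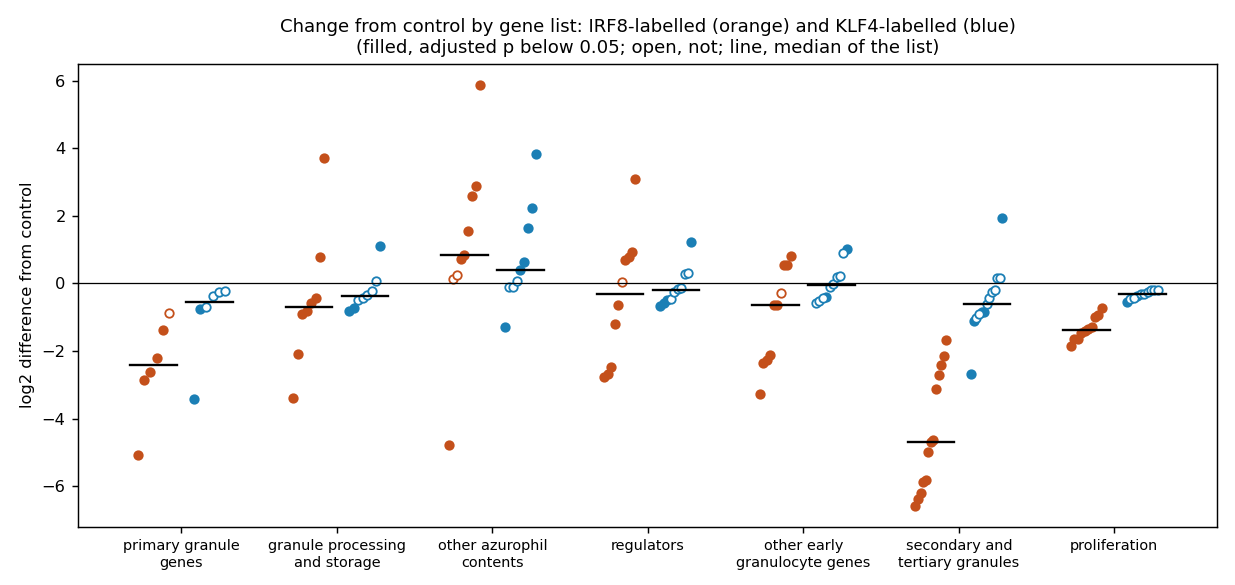
Log2 difference from control of each tested gene in 7 lists, for IRF8-labelled (orange) and KLF4-labelled cells (blue), filled where the adjusted p is below 0.05, with a line at the median of the list. The 6 primary granule genes have medians of -2.41 and -0.54 and the later granule genes -4.68 and -0.62, while the other azurophil contents lie mostly above 0.

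The nearest protein-coding genes on both sides, up to 3 each in the RefSeq annotation (GRCm38.p6, used for names and order only), gave 30 neighbours, 29 on the array and 19 tested. In IRF8-labelled cells 12 of the 19 were lower and 4 higher, beside 35.8% and 25.6% of all genes tested. In KLF4-labelled cells 8 were lower and 3 higher, beside 7.93% and 10.2%. Whether neighbours differ from other genes was not tested. Around Prtn3 and Elane the adjacent genes fell by like amounts: Plppr3, which precedes Prtn3, by 2.79 on the log2 scale and Cfd, the complement protease factor D gene that follows Elane, by 2.87, beside 2.61 for Prtn3 and 2.85 for Elane. Farther out, Ptbp1 (a splicing regulator) fell by 1.17 and R3hdm4 by 0.69, and Med16 differed by 0.11 ± 0.35 (SE; limma adjusted p = 0.814). In KLF4-labelled cells Plppr3 fell by 0.63 and Ptbp1 by 0.38, and Cfd differed by -0.43 (limma adjusted p = 0.0582).

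Next to Mpo, the lactoperoxidase gene Lpo differed by 0.17 in IRF8-labelled cells (limma adjusted p = 0.438), whereas Epx, the eosinophil peroxidase gene of the same cluster, fell by 3.53 (limma adjusted p = 1.37e-04) and was above background on 1 of the 2 IRF8-labelled arrays. Mcpt8, a serine protease gene of basophils next to Ctsg, read lower by 4.34 ± 0.09 (SE; limma adjusted p = 9.48e-06) and by 1.36 in KLF4-labelled cells. Ctsg itself fell by 1.37 in IRF8-labelled cells. Around Ms4a3, Oosp2 and Oosp1 fell by 3.07 and 4.75 in IRF8-labelled cells and by 1.07 and 1.73 in KLF4-labelled cells, whereas Ms4a6d of the same family rose by 2.28 and 2.00. Beside Fcnb, Rxra rose by 0.77 and Wdr5 fell by 1.35 in IRF8-labelled cells. Olfm1, the nearest gene on the other side of Fcnb, was above background on 0 of 2 control, 2 of 2 IRF8-labelled and 1 of 2 KLF4-labelled arrays. It rose at least 234-fold in IRF8-labelled cells (limma adjusted p = 2.64e-05), a bound taken against the lowest signal well above background on the control arrays, and it also passed as higher in KLF4-labelled cells (adjusted p = 0.0186). Farther out, 1700007K13Rik was above background on the IRF8-labelled arrays alone and rose at least 3.03-fold there (limma adjusted p = 0.00263). The neighbours of Fcnb thus did not all move with it.

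**Figure D5:**
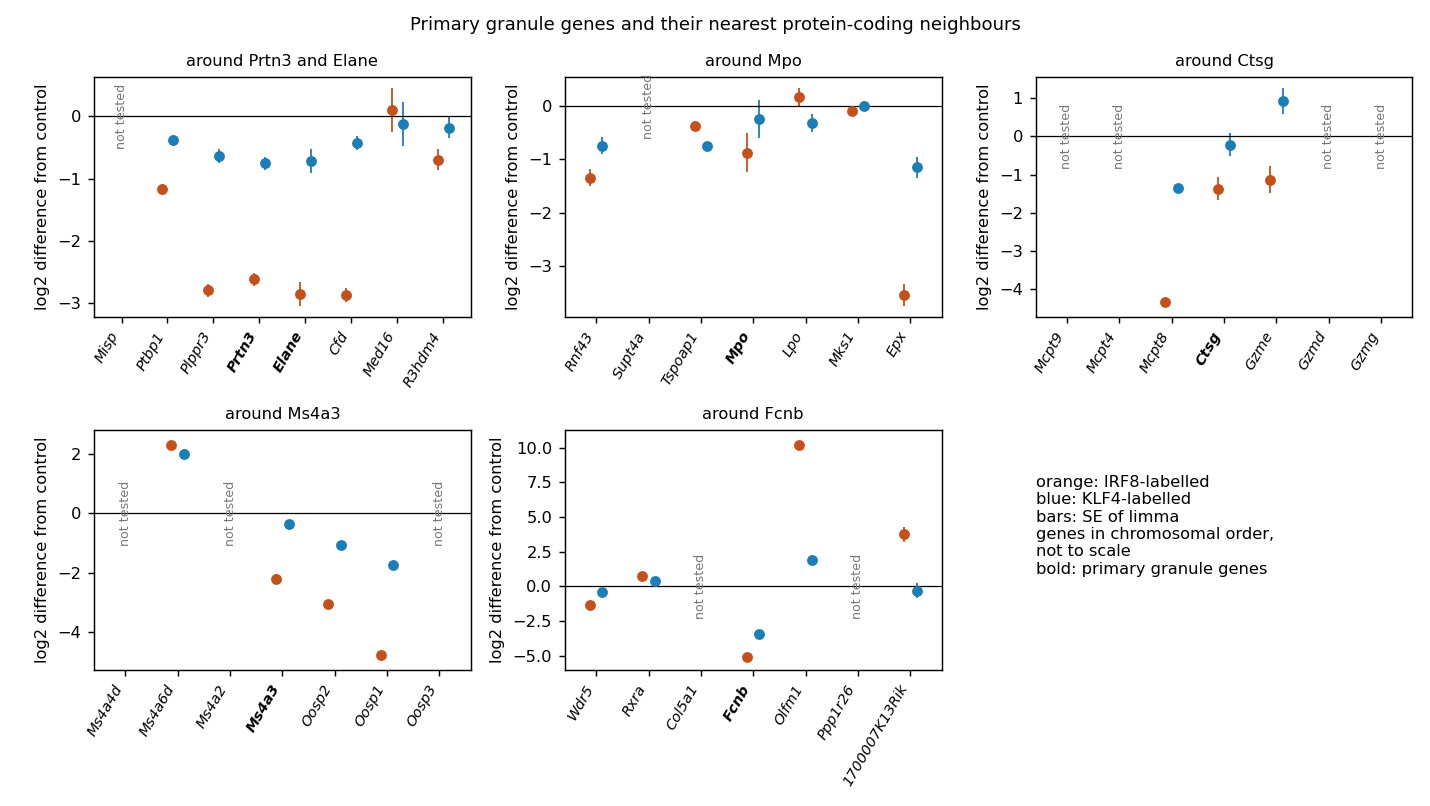
Log2 difference from control (point, with the SE of the limma fit) for the 6 genes (bold) and their nearest protein-coding neighbours in chromosomal order, in IRF8-labelled (orange) and KLF4-labelled cells (blue). Plppr3, Prtn3, Elane and Cfd lie between -2.87 and -2.61 in IRF8-labelled cells, and Med16 of the same locus lies at 0.11. In those cells the tested neighbours of Mpo, Ms4a3 and Fcnb lie on both sides of 0, and those of Ctsg lie below it. Olfm1 and 1700007K13Rik, not above background on control arrays, are drawn at their fitted values.

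Other marker lists moved with the same groups. The shares of all genes tested called higher and lower were 25.6% and 35.8% in IRF8-labelled and 10.2% and 7.93% in KLF4-labelled cells. Monocyte and macrophage markers rose, 11 of 11 tested in IRF8-labelled and 8 of 11 in KLF4-labelled cells, and their summed signal over the 75th percentile was 11.96 and 11.95 on the control arrays, 521 and 528 in IRF8-labelled and 88.0 and 91.4 in KLF4-labelled cells. Ctss, Msr1, Cx3cr1 and C1qa were among those not above background on any control array. All 10 proliferation markers fell in IRF8-labelled cells (median -1.37) and 2 in KLF4-labelled cells (8 with the block). Of 6 basophil, mast cell and eosinophil markers tested, 2 rose and 2 fell in both comparisons, with summed signals between 1.91 and 4.77 on the 6 arrays, and the defining genes Cpa3, Gata2, Fcer1a and Ms4a2 were not tested because too few arrays read them above background. Of 8 erythroid, platelet and lymphoid markers 2 were tested, and 1, Klf1, fell in IRF8-labelled cells (limma adjusted p = 0.0349). With the replicate block that call was lost (adjusted p = 0.0618) and the other, Cd3e, a T cell gene, was called higher (log2 difference 0.95, adjusted p = 0.0103; 0.0767 without the block). The part of these lists in the falls of the granule genes was not tested.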

How the data were processed

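Total RNA labelled with Cy3 was hybridised to 6 single-colour Agilent mouse arrays. Per the file headers, the processed signals of the arrays are intensity, read and background-subtracted by Agilent Feature Extraction 10.7.3.1 (the program is also in the submitters' processing notes). They were not normalized from array to array. A deposited table of the authors' values, also intensity, served as an alternative. Each of its columns is the processed signal times 1 factor (0.642 to 1.388). Its 75th percentile is 506 on every array, so its scaling is like that of the main fit.

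Control spots and 75 probes with marked spots were left out of 55681 probes. Values are log2 processed signals less the 75th percentile of their array. Probes were named through their RefSeq accessions (26762 of 28390 matched, 20284 genes), the brightest probe standing for a gene. Genes well above background on both arrays of a group were tested: 13247. All 6 arrays entered a limma 3.58.1 fit (R 4.3.3; 3 residual degrees of freedom, 2-sided, Benjamini-Hochberg over all genes tested, threshold 0.05). On simulated data with 13247 genes and 200 changed, the IRF8-labelled comparison recovered 53.8% of log2 changes of 1 and 85.0% of changes of 2, with 3.75% of calls false. That simulation drew independent noise, with spreads shuffled among genes and no shift shared by a replicate number. In the data 61.5% of genes were called, so these rates check the fit and do not carry over to the calls here.

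Replicate numbers follow the experiment and the slide in the labels and file headers, and array deviations correlated at r = 0.282, 0.321 and 0.391 over 13247 genes, which pairs the samples by number, and a block fit was run for every comparison. The normexp alternative used the median spot signal, because no mean signal column was found in these files. Named genes are the 6, Irf8 and Klf4, up to 4 per list with the largest called changes, the 3 most alike profiles and the 3 nearest coding genes on either side; a few other list members were named after their values were seen, and a few that the rule would name are not reported here but stay in the counts. The members and lists were chosen with earlier results of these data known. No protein sequences were used here.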

Additional observations from a re-analysis of the deposited data

How the results depend on the processing

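Fits with the replicate block, other scalings (quantile, median, spike-in), normexp, the deposited table, other filters or probe rules, limma trend and robust settings and each array left out gave 396 values for the 6 genes: 338 kept direction and side of the threshold, 30 newly passed, 14 no longer passed and 14 changed sign. Many of these values could not change direction. The block alone, the filters, the probe rules and the trend and robust settings left each log2 difference as in the main fit. So did leaving out an array of the group not compared. The deposited table has a scaling like that of the main fit. The 338 are therefore not independent checks. Fcnb, Elane, Prtn3 and Ms4a3 kept their IRF8-labelled falls in every alternative run. Genes called for IRF8-labelled minus control were 4612 with spike-in scaling and 6684 to 7679 with an array left out (members 4 to 5, and 6 with the block, quantile, median, spike-in or normexp). For KLF4-labelled minus control the count of 2405 became 6379 (replicate block), 1500 (median), 865 (spike-in), 1030 (normexp), 948 (no filter) and 873 to 1468 (an array left out); blocks combined with quantile, spike-in or normexp, added after seeing the data, gave 6013, 4940 and 6879. Members called there were 4 with the block (also probe by probe, and with normexp added), 3 with the block and quantile or spike-in scaling and, without it, with quantile, all 6 arrays above background or trend and robust, 1 with spike-in scaling or no filter, and 1 to 2 with an array left out. IRF8-labelled minus KLF4-labelled gave 2671 genes with spike-in scaling and 4624 to 6516 with an array left out (members 4 to 5, 4 with no filter, and 6 with the block or quantile). Between replicates, 1591 genes became 2784 (quantile), 10422 (spike-in), 6604 (normexp), 3309 (deposited table), 3010 (no filter), 3780 (all 6 arrays above background), 5016 (trend and robust) and 0 (mean of a gene's probes, limma; 4815 at an unadjusted p below 0.05). Members called there were 0 with quantile normalization (1 unadjusted) or the mean of probes (4 unadjusted), 2 with median, spike-in, normexp, the deposited table or all 6 arrays, and 4 with trend and robust. With spike-in scaling the 2 were Prtn3 (0.28, limma adjusted p = 0.0324) and Fcnb (0.55, 0.00416), both higher in replicate 2. Mpo (-0.24, 0.0711) and Ctsg (-0.11, 0.361) did not pass there. In the other cases with 2 they were Mpo and Ctsg.

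Sign changes in KLF4-labelled minus control were Mpo 0.05 without control replicate 1 and 0.17 without KLF4-labelled replicate 2 (range -0.67 to 0.17 with an array left out), and Ctsg 0.02 and 0.15 in the same cases (range -0.59 to 0.15) and 0.031 with quantile normalization, with or without the block. Between replicates, Elane, Prtn3 and Ms4a3 gave 0.064, 0.024 and 0.038 with quantile normalization and 0.13, 0.28 and 0.18 with spike-in scaling, Ctsg 0.056 with quantile normalization, and Fcnb -0.11 with normexp. Spike-in scaling moved the median of all genes from -0.14 to -0.26 in IRF8-labelled minus control and from 0.05 to 0.44 between replicates, and median scaling moved it from -0.16 to -0.04 in KLF4-labelled minus control. The causes were not tested. On its own, the replicate block changed no call of the 6 genes beyond those given. Dim signal limits Fcnb: on the IRF8-labelled arrays it lay at -4.13 and -4.02, and the lowest signals well above background were -4.88 and -5.39.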
